A study of Homo sapiens with 6 samples.

Results

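The genes of the cytosolic ribosomal proteins, large and small subunit, were compared between MNNG/HOS Cl #5 cells grown inside a bone scaffold and the same cells grown flat, at day 7 after seeding. MNNG/HOS is a human osteosarcoma cell line transformed with a chemical carcinogen, and its name gives this line as a clone. The genes were chosen by a rule on names, with earlier results of these data known. Every protein-coding gene whose symbol is RPL or RPS with a number was taken, with a suffix of A, X or L allowed, together with RPLP0, RPLP1, RPLP2 and RPSA, and pseudogenes, the RPS6K kinases and the proteins of the mitochondrial ribosome were left out. This gave 82 genes of the 62703 in the deposited table, 50 of the large subunit and 32 of the small subunit.

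The 3D group held 3 libraries from cells seeded in a demineralised bone matrix scaffold, and the 2D group held 3 libraries from cells on a flat surface. Both groups were labelled wild type and were kept in DMEM of high sugar content with L-glutamine, fetal bovine serum and antibiotics. Nothing in the labels says that the 3 libraries of a group came from separate cultures, so the p-values below measure only the spread between these libraries. The series title names drug resistance in the scaffold and glutamine metabolism, and the comparison asks how transcript levels in the scaffold differed from those in flat culture.

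Messenger RNA was selected by its poly(A) tail, and levels are FPKM, the authors' count of fragments scaled to gene length and library total. The library totals worked out from the values were 13382626 to 16422104 reads in 3D and 13694342 to 14286993 in 2D. Of 8 markers of the osteoblast lineage, COL1A1, SPARC, VIM, TWIST1 and PRRX1 were at an FPKM of at least 1 in every library, while ALPL was near 0 and RUNX2 and COL1A2 were low or variable. Markers of blood cells were not uniform. Of 4 immune markers CD3E was listed at 0 in all 6 libraries and PTPRC was at 0.0337 FPKM or less, while the lysosomal protein gene CD68 was at 2.49 to 4.36 in 3D and 16.7 to 22.1 in 2D and LYZ at 0.954 to 2.38 over all libraries. Of 4 erythroid markers ALAS2 was listed at 0, while the haemoglobin genes HBA1, HBA2 and HBB were above 0 in every library and reached 16.6, 7.83 and 7.60 FPKM in 2D. The summed immune markers stood at 3.71 to 5.48 FPKM in 3D and 17.7 to 24.5 in 2D, and the summed erythroid markers at 2.44 to 8.16 in 3D and 2.42 to 30.2 in 2D. The summed osteoblast lineage markers stood at 397 to 418 FPKM in 3D and 597 to 816 in 2D. These sums moved with the groups or with single libraries, and their part in the results was not tested.

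A eukaryotic ribosome is built from ribosomal RNA and one copy of most of these proteins, the P stalk being the exception, so their genes are expressed at high and broadly matched levels in growing cells. Most of their mRNAs belong to the TOP class, named for a terminal oligopyrimidine tract: transcription starts at a C that is followed by an unbroken run of C and T, and mTORC1 and the RNA-binding protein LARP1 control the translation and stability of mRNAs that begin this way. Ribosomal protein genes have also left many processed pseudogenes in the human genome, near-identical copies without introns whose sequence competes for the same reads.

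The annotated starts of a few members show this tract and its absence. Each line below holds the 10 bases before and 20 bases from an annotated transcription start, 5′ to 3′ on the strand of the gene, from RefSeq on GRCh38.p14. Where a gene had several annotated starts, a start with the tract was shown in preference. Capitals mark the unbroken run of C and T that covers the first transcribed base, and a sequence without capitals has none there. RPS27, RPL29 and RPL39 are shown because they were among the members with the largest decrease, RPS6 and RPLP0 as members of known function near the middle, RPL21 and RPL36A because they did not pass the test, RPL36AL and RPS27L as paralogs, and RPS4X and RPS26 as members without a run.
RPS27, chr1:153990752-153990781, plus strand: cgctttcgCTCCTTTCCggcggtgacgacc
RPL29, chr3:51995876-51995905, minus strand: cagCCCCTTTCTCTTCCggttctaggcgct
RPL39, chrX:119791611-119791640, minus strand: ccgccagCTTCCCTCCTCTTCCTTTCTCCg
RPS6, chr9:19380217-19380246, minus strand: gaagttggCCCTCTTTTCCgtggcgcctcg
RPLP0, chr12:120201092-120201121, minus strand: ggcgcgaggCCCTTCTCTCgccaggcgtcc
RPL21, chr13:27251548-27251577, plus strand: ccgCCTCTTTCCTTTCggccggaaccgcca
RPL36A, chrX:101391001-101391030, plus strand: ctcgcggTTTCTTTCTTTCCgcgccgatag
RPL36AL, chr14:49620607-49620636, minus strand: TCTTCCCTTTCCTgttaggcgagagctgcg
RPS27L, chr15:63157458-63157487, minus strand: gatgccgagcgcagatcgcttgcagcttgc
RPS4X, chrX:72277229-72277258, minus strand: ctccagccccaatttctacgcgcaccggaa
RPS26, chr12:56041908-56041937, plus strand: acataacctcgattttcttccgccatccgg

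Of the 82 members, 65 had an annotated start in the RefSeq table, and 46 of these (70.8%) had a C as the first base followed by at least 4 bases that were C or T, read on the gene's own strand only. The same held for 1404 of 27305 genes in that table (5.14%). Counted by start, it held for 46 of 80 starts of members (57.5%) and 4.07% of all starts. A C followed by 7 such bases within 10 bases of a start was found in 49 of the 65 members and in 10.9% of all genes. A match to these letters is a description of the annotated start and not a measured one, and a start annotated a few bases away can hide a tract.

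Ribosomal protein genes were lower in the scaffold in almost every case. A gene was tested where 3 or more libraries held 1 FPKM or more, which 79 members met. Of these, 68 fell, 1 rose (RPS26) and 10 did not pass (limma on log2(FPKM + 1), Benjamini-Hochberg adjusted p under 0.05 over all 12843 tested genes). Over all tested genes 18.1% fell and 33.3% rose. The median log2 change of the members was -0.82, with quartiles of -0.98 and -0.61, against 0.14 over all tested genes. For 70 members all 3D libraries lay below all 2D libraries, and for 1 they lay above, where 21.9% and 39.0% of all tested genes did so. A drop to 50% or less on this scale was called for 18 members, and for 4.14% of all tested genes.

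**Figure D1:**
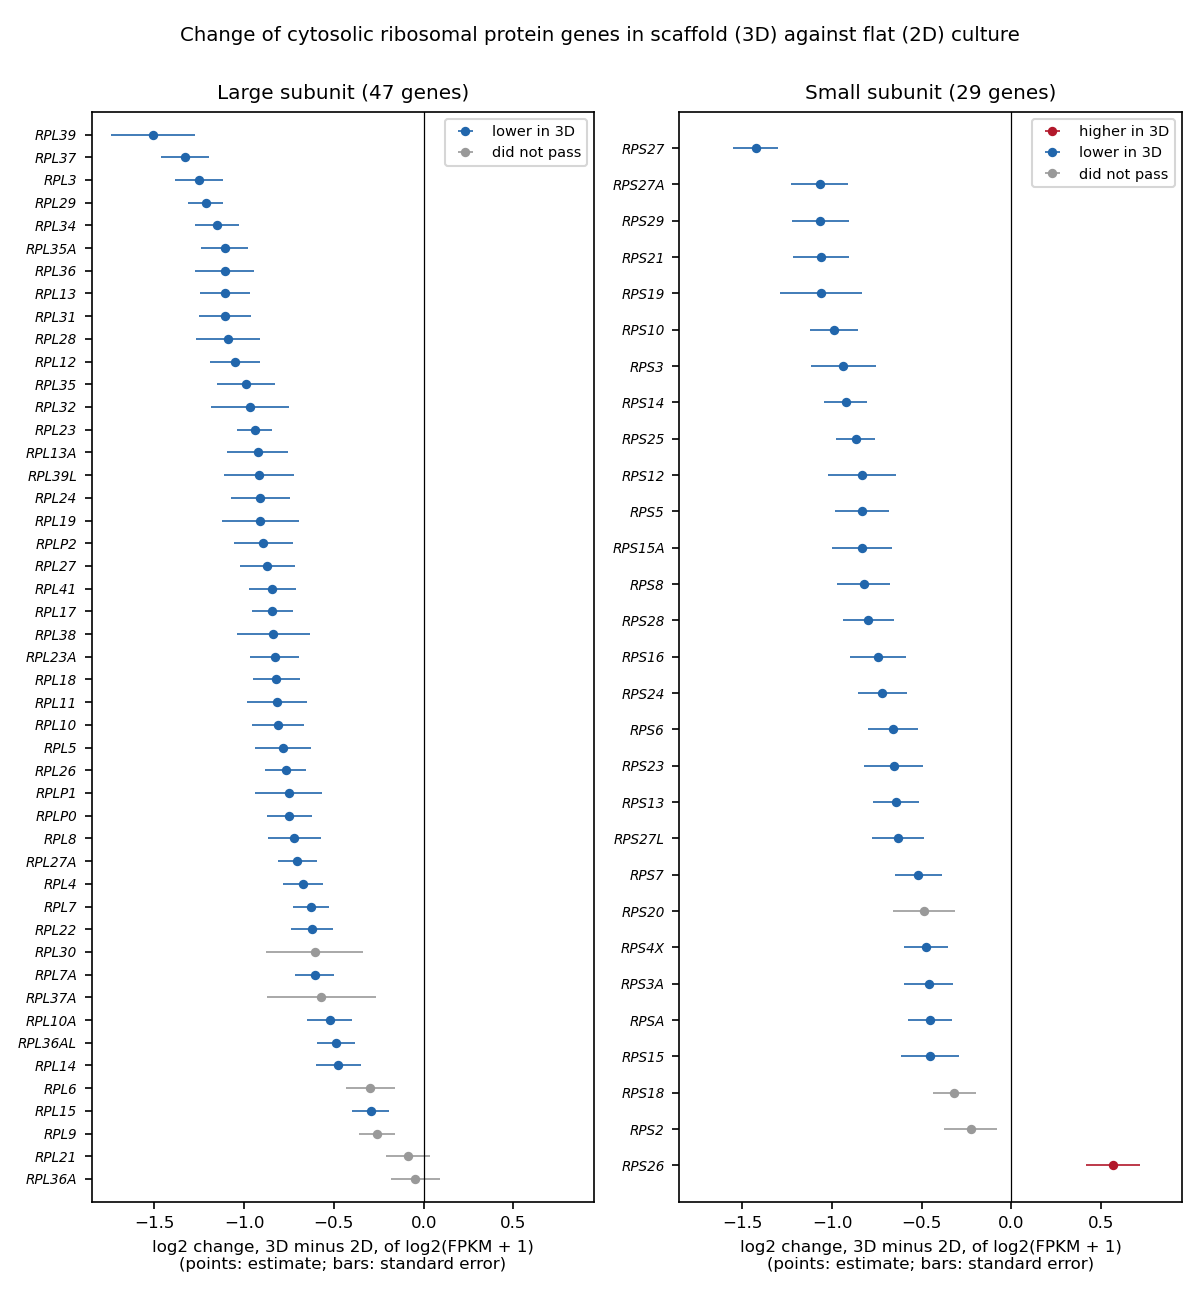
Log2 change (3D minus 2D, on the log2(FPKM + 1) scale) of 76 tested ribosomal protein genes, 47 of the large subunit on the left and 29 of the small subunit on the right, with points for the estimate and bars for its standard error. Nearly all points lie left of 0, from -1.51 for RPL39, and RPS26 alone lies clearly to the right, at 0.57.

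Other abundant genes moved in both directions. Among the 278 other protein-coding genes whose mean was 50 FPKM or more, 87 fell, 89 rose and 102 did not pass, with a median log2 change of -0.06. As a share of all reads, the members took 3.49, 3.11 and 3.02% of the 3D libraries and 6.39, 5.71 and 4.88% of the 2D libraries. The means were 3.21 ± 0.246% and 5.66 ± 0.757% (SD, n = 3 each), a ratio of 1.77 in favour of 2D, and the highest 3D library stayed below the lowest 2D library. FPKM and shares are relative to the library total, so a total amount of ribosomal protein mRNA per cell was not measured. In bulk RNA, fewer cells with high levels and less of this RNA in each cell cannot be told apart.

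Both subunits were lower in 3D. In the large subunit 42 of 48 tested genes fell and 6 did not pass, and in the small subunit 26 of 31 fell, 1 rose and 4 did not pass. Over both subunits 68 of 79 fell, where 18.1% of all tested genes fell and 33.3% rose. The median log2 changes were -0.83 and -0.74. Large subunit genes took 2.00 ± 0.146% of reads in 3D and 3.63 ± 0.466% in 2D, and small subunit genes 1.21 ± 0.1% and 2.03 ± 0.296% (SD, n = 3 each). The difference between the subunits was not tested.

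**Figure D2:**
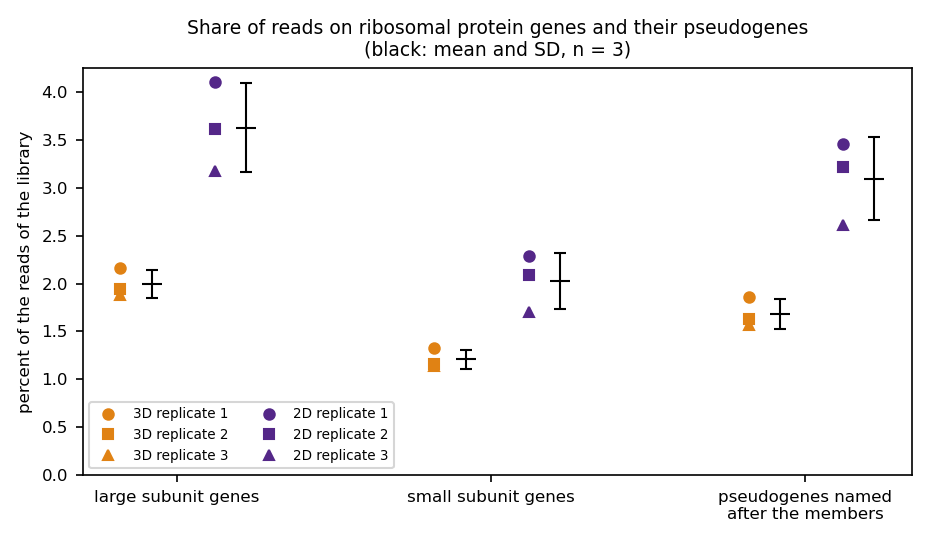
Percent of the reads of each library on large subunit genes, small subunit genes and the pseudogenes named after them, with 1 point per library and the mean and SD in black. All 3D libraries lie below all 2D libraries for each of the 3 classes, and within each group replicate 1 is the highest.

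The libraries within a group kept a common order. Replicate 3 was the lowest of the 2D libraries for 69 of the 79 members, against 31.6% of all tested genes, and replicate 1 was the highest of the 3D libraries for 62, against 42.9%. The members thus shared a level per library, and they are not independent replicates of the comparison. The highest library exceeded the lowest by a median factor of 1.22 in 3D and 1.34 in 2D. RPL37A spread more widely in 2D, with a factor of 2.31.

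**Figure D3:**
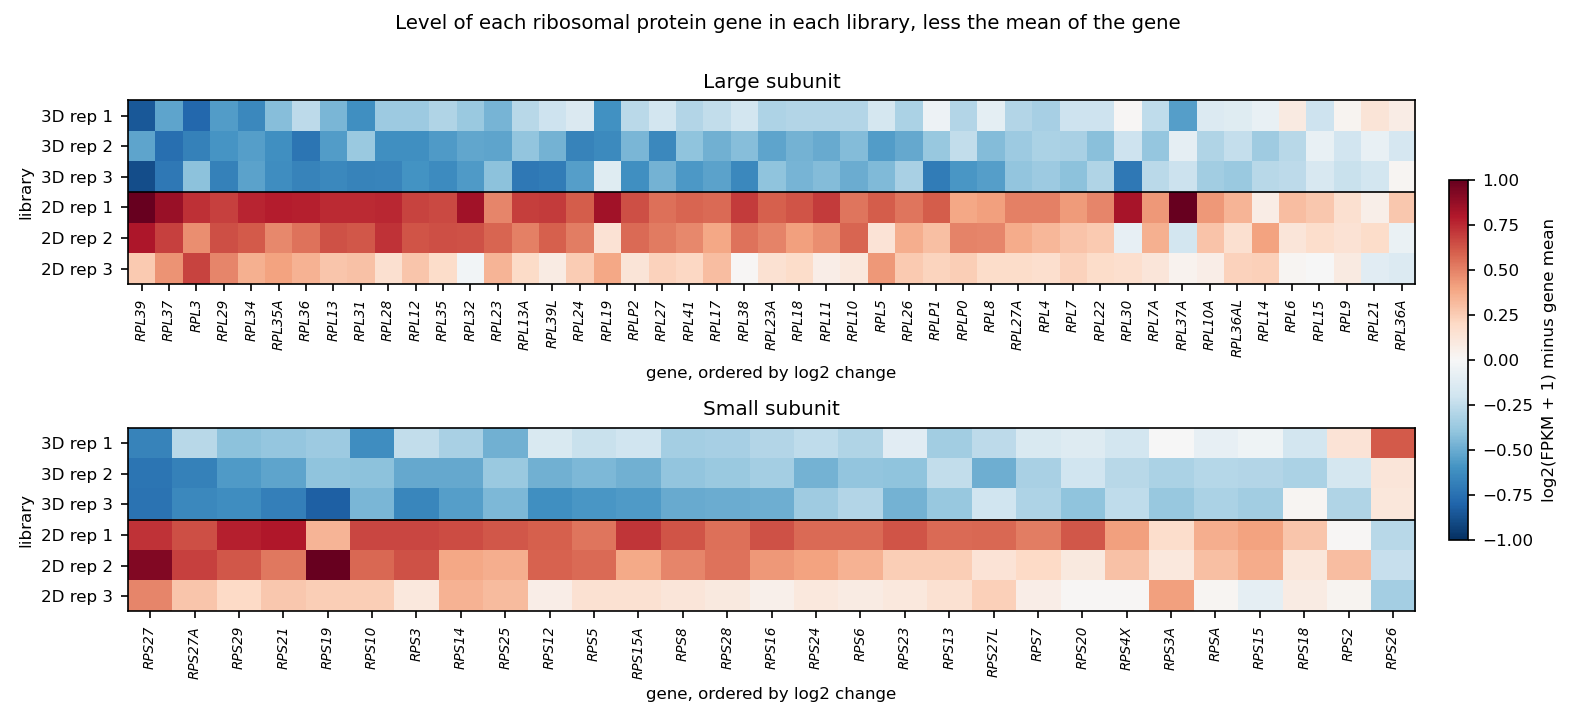
Level of 76 tested members in each library as log2(FPKM + 1) less the mean of that gene over the 6 libraries, with genes ordered by log2 change within each subunit. The 3D rows are below the mean and the 2D rows above it for nearly every gene, 2D replicate 3 is the palest of the 2D rows, and RPS26 shows the opposite pattern.

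Among the largest decreases in the large subunit were those of RPL39, RPL37 and RPL3. RPL39, a small protein of the wall of the tunnel through which the new chain leaves, was at 5.27, 6.84 and 5.11 FPKM in the 3D libraries and 24.8, 18.8 and 12.5 in the 2D libraries. Every 3D library was thus well below every 2D library, although the 2D values themselves spread widely. Its log2 change was -1.51 (SE 0.23, limma adjusted p = 0.00213). RPL37, which binds ribosomal RNA through a zinc finger, was at 67.7, 57.7 and 59.3 FPKM in 3D and 179.3, 157.6 and 134.0 in 2D. The groups were far apart, and the log2 change was -1.33 (SE 0.13, limma adjusted p = 0.000484). RPL3, which reaches towards the peptidyl transferase centre, was at 79.5, 85.9 and 103.8 FPKM in 3D and 230.3, 191.0 and 221.5 in 2D. In this gene 3D replicate 3, not replicate 1, was the highest of the scaffold libraries, and the log2 change was -1.25 (SE 0.13, limma adjusted p = 0.000583).

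In the small subunit RPS27, RPS27A and RPS29 were among those that fell most. RPS27, a zinc finger protein, was at 52.2, 49.9 and 49.5 FPKM in 3D and 138.2, 159.4 and 117.4 in 2D. The 3D libraries lay within a narrow range and far below flat culture, and the log2 change was -1.42 (SE 0.13, limma adjusted p = 0.00036). RPS29, another zinc finger protein, fell by 1.07 on the log2 scale (SE 0.16, limma adjusted p = 0.0017), from 36.9 ± 7.45 FPKM in 2D to 16.9 ± 1.40 in 3D (SD, n = 3 each).

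By function, the P stalk, which recruits the elongation factor GTPases, fell as a whole. RPLP0, the stalk's base, was at 73.7, 76.1 and 60.2 FPKM in 3D and 119.0, 127.9 and 107.4 in 2D. The groups were apart, and the log2 change was -0.75 (SE 0.13, limma adjusted p = 0.00268). RPLP1 and RPLP2, the paired arms of the stalk, changed by -0.75 and -0.89, and RPL12, which anchors the stalk to the RNA, by -1.05. All 4 were called lower, where 68 of all 79 tested members and 18.1% of all tested genes were.

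The exit tunnel and the surface around its opening, where the signal recognition particle and chaperones dock, were represented by RPL4, RPL17, RPL19, RPL23A, RPL26, RPL31, RPL35 and RPL39. All 8 fell, where 68 of all 79 tested members did so. The median log2 change of the 8 was -0.88, with a range of -1.51 to -0.67. RPL35, a docking site at the opening, was at 211.6, 176.0 and 168.3 FPKM in 3D and 411.1, 407.1 and 296.6 in 2D. The flat libraries were all above the scaffold libraries, and RPL35 changed by -0.99 (SE 0.16, limma adjusted p = 0.00248). RPL4, whose loop lines the tunnel, had the smallest change of the 8, at -0.67 (SE 0.11, limma adjusted p = 0.00261).

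RPL5 and RPL11 form a complex with the smallest RNA of the large subunit and, outside the ribosome, bind MDM2, the ligase that degrades p53. RPL5 was at 169.0, 129.9 and 140.8 FPKM in 3D and 291.6, 211.1 and 258.8 in 2D, and RPL11 at 124.9, 107.6 and 112.9 in 3D and 248.2, 211.0 and 160.1 in 2D. Both were lower in every scaffold library than in any flat library. The log2 changes were -0.78 (limma adjusted p = 0.00538) and -0.82 (limma adjusted p = 0.0061).

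Proteins of the mRNA channel of the small subunit were mixed. RPS3, RPS3A, RPS14 and RPS28 fell, by -0.94, -0.46, -0.92 and -0.80 on the log2 scale, RPS2 did not pass and RPS26 rose. RPS3 is part of the entry site, and RPS14 and RPS28 lie towards the exit. RPS2, next to RPS3 at the entry, was at 117.1, 93.9 and 85.9 FPKM in 3D and 107.2, 131.5 and 108.0 in 2D. Its groups overlapped, since 3D replicate 1 was above 2 of the flat libraries, and the log2 change of -0.23 did not pass (SE 0.15, limma adjusted p = 0.232).

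RPS6, the substrate of the S6 kinases downstream of mTORC1, was at 184.1, 172.5 and 185.3 FPKM in 3D and 336.9, 289.1 and 240.1 in 2D. All scaffold libraries were lower, and the log2 change was -0.66 (SE 0.14, limma adjusted p = 0.0064). RPL13A, which can leave the ribosome to repress inflammatory mRNAs in myeloid cells, changed by -0.93 (limma adjusted p = 0.00373). RACK1, a scaffold protein on the head of the small subunit whose symbol lies outside the naming rule, changed by -0.46 (limma adjusted p = 0.0115).

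Ribosomal proteins made as fusions with ubiquitin or a ubiquitin-like protein also fell. RPS27A went from 89.8 ± 13.4 FPKM in 2D to 42.3 ± 7.01 in 3D (SD, n = 3 each), a log2 change of -1.07 (limma adjusted p = 0.0017). Outside the naming rule, FAU, which encodes a ubiquitin-like protein fused to RPS30, changed by -0.76 (limma adjusted p = 0.00798).

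Of the 19 members linked to disorders of red cell production 17 fell, RPS26 rose and 1 did not pass. This was near the share over all members, of which 68 of 79 fell, where 18.1% of all tested genes fell. Most of these genes are known for Diamond-Blackfan anaemia, an inherited failure of red cell production, whereas RPS14 is known for a syndrome with an acquired chromosome deletion. RPS19, the member most often affected in Diamond-Blackfan anaemia, was at 87.6, 85.2 and 63.7 FPKM in 3D and 143.2, 229.1 and 134.5 in 2D. The scaffold libraries were all lower, with 2D replicate 2 far above the other flat libraries, and the log2 change was -1.06 (SE 0.23, limma adjusted p = 0.00731).

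Apart from RPS26, 10 tested members were not called lower, among them RPL6, RPL9, RPL21, RPL30, RPL36A and RPL37A in the large subunit, and RPS2, RPS18 and RPS20 in the small one. RPL37A was at 27.4, 38.1 and 34.7 FPKM in 3D and 82.0, 35.6 and 41.6 in 2D, and RPL30 at 131.2, 112.5 and 79.2 in 3D and 231.7, 123.3 and 146.4 in 2D. In both, 2D replicate 1 stood far above the rest and 1 flat library overlapped the scaffold range, with log2 changes of -0.57 (limma adjusted p = 0.156) and -0.61 (limma adjusted p = 0.101). RPS18, RPS20 and RPL9 were lower in every scaffold library but missed the threshold, with log2 changes of -0.32, -0.49 and -0.26 (limma adjusted p = 0.0601, 0.0517 and 0.061). RPL6 changed by -0.30 (limma adjusted p = 0.107), and in it the highest scaffold library overlapped the flat range.

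The smallest changes that still passed were those of RPL15 and RPS15. RPL15, a large subunit protein, was at 35.1, 38.5 and 36.2 FPKM in 3D and 49.3, 46.0 and 40.5 in 2D, and RPS15, which lies in the head of the small subunit, at 65.2, 54.8 and 52.7 in 3D and 89.2, 87.2 and 63.2 in 2D. RPL15 was lower in every scaffold library, while for RPS15 2D replicate 3 fell within the scaffold range. The log2 changes were -0.30 (limma adjusted p = 0.0474) and -0.45 (limma adjusted p = 0.0478). Both calls were lost when replicate 2 or 3 of the scaffold or replicate 1 or 2 of flat culture was left out, and that of RPL15 also without 3D replicate 1.

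RPL21 and RPL36A stood out by having almost no difference in their own rows. RPL21 was at 6.93, 5.88 and 5.39 FPKM in 3D and 6.55, 7.24 and 5.70 in 2D. RPL36A, which contacts the exit site for transfer RNA, was at 7.39, 6.09 and 7.08 in 3D and 8.62, 6.61 and 6.23 in 2D. The groups were interleaved for both genes, with log2 changes of -0.09 (SE 0.12, limma adjusted p = 0.582) and -0.05 (SE 0.13, limma adjusted p = 0.803).

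Pseudogenes carried most of the reads of these families. RPL9P7, a processed pseudogene of RPL9, was at 1141, 1036 and 981 FPKM in 3D and 2700, 2499 and 2024 in 2D, where RPL9 itself was at 6.57, 5.52 and 5.39 in 3D and 7.31, 7.23 and 6.92 in 2D. RPL36AP37 was at 1141, 1027 and 1042 FPKM in 3D and 2676, 2326 and 2049 in 2D. RPL21P75 was at 952.8, 735.5 and 824.3 in 3D and 1597, 1474 and 1274 in 2D. These pseudogene rows were lower in every scaffold library, with log2 changes of -1.19, -1.13 and -0.79 (limma adjusted p = 0.000746, 0.000691 and 0.00328). Of the reads that fell on RPL21, RPL9 or RPL36A or on a pseudogene named after it, 97.5, 97.4 and 92.8% were on the pseudogenes. The values do not show which reads came from the gene and which from a transcribed copy.

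Each member was therefore also summed with the pseudogenes named after it and the fit was repeated. Of the 79 sums 74 were lower in 3D, 1 was higher and 4 did not pass, where 17.4% of all rows in that fit were lower and 33.7% higher. The 68 members called lower alone were all among the 74, and RPL6, RPL9, RPL21, RPL36A, RPS18 and RPS20 joined them. The sums of RPL9, RPL21 and RPL36A changed by -1.14, -0.90 and -1.02 (limma adjusted p = 0.000677, 0.002 and 0.000804). RPS3A went from -0.46 alone, a call lost when replicate 2 or 3 of the scaffold or replicate 1 or 3 of flat culture was left out, to -1.06 summed (limma adjusted p = 0.00044). RPS2, RPL30 and RPL37A did not pass as sums either. For RPL30 and RPL37A the pseudogenes held 0.0197 and 1.57% of the reads, and for RPS2 they held 70.0%. The median log2 change of the sums was -0.83.

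**Figure D4:**
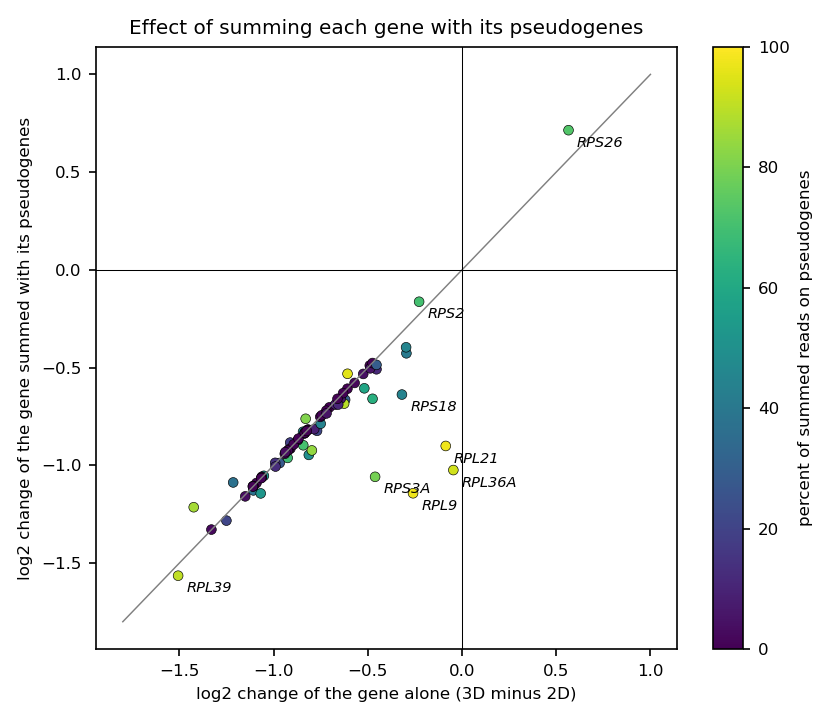
Log2 change of 76 tested members alone (horizontal) and summed with the pseudogenes named after them (vertical), coloured by the percent of the summed reads on pseudogenes, with a line where both are equal. Most members lie on the line, RPL9, RPL21, RPL36A and RPS3A lie well below it, and RPS26 remains above 0 on both axes.

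For 19 members over 50% of the summed reads were on pseudogenes. Alone, 14 of these fell, 1 rose and 4 did not pass, with a median log2 change of -0.63, and as sums 17 fell, with a median of -0.92. Among the 60 other members the median was -0.83 both alone and summed. Taken by themselves, 201 pseudogene rows were tested, of which 139 fell, 14 rose and 48 did not pass. The shares over all tested genes were 18.1% lower and 33.3% higher. All pseudogenes named after members took 1.68 ± 0.153% of reads in 3D and 3.10 ± 0.437% in 2D (SD, n = 3 each).

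RPS26, a small subunit protein at the mRNA exit channel, was the single member that rose. Its row held 246, 166 and 196 reads in 3D and 117, 119 and 111 in 2D, or 5.23, 3.42 and 3.39 FPKM in 3D and 2.35, 2.47 and 2.21 in 2D. All scaffold libraries were above all flat libraries, and 3D replicate 1 was the highest. The log2 change was 0.57 (SE 0.15, limma adjusted p = 0.0172). Its pseudogene RPS26P6 was at 101.3, 71.0 and 59.1 FPKM in 3D and 42.1, 35 and 31.6 in 2D, and changed by 1.04 (limma adjusted p = 0.00535). The sum over RPS26 and its pseudogenes also rose, by 0.71 (SE 0.16, limma adjusted p = 0.00993), and pseudogenes held 72.9% of its reads. Without the filter on low values RPS26 had a limma adjusted p of 0.0543 and was not called. How reads that match several genes were counted is not given. The few reads of this row therefore do not show whether RPS26 mRNA as a whole rose.

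Because nearly all members moved together, each was also compared with the set, by subtracting in every library the median of the tested members before the fit. By this measure 13 members fell further than the set and 12 fell less or rose, where 2.05% and 78.2% of all tested genes were called in those directions. RPL39, RPS27 and RPL37 were among those furthest below, with relative log2 changes of -0.72, -0.64 and -0.54 (limma adjusted p = 0.00332, 0.000673 and 0.00108). RPS26, RPL36A, RPL21 and RPS2 lay furthest above, at 1.35, 0.74, 0.70 and 0.56 (limma adjusted p = 1.89e-05, 0.00161, 0.00271 and 0.0029). The counts rested in part on single libraries: without 3D replicate 2 there were 7 in each direction, without 2D replicate 2 there were 8 below and 7 above, and without 3D replicate 3 there were 7 below. With pseudogene sums 4 were called below the set, RPL39 and RPL37 among them, against 1.02% of all rows in that fit. RPS27, with 86.7% of its summed reads on pseudogenes, was no longer called (-0.22, limma adjusted p = 0.0512), and RPL9, RPL21 and RPL36A were no longer called above it. In that fit 21 sums were called above the set, against 86.3% of all rows, RPS26, RPS2, RPL6, RPL15 and RPS18 among them.

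Paralogs that can replace a standard ribosomal protein were followed by name. RPL39L, which is prominent in testis and in some tumours, was at 14.3, 11.8 and 9.89 FPKM in 3D and 27.7, 25.7 and 17.8 in 2D, and fell with RPL39, by -0.92 (SE 0.19, limma adjusted p = 0.00696). RPS27L, which is induced by p53 in other settings, was at 2.03, 1.58 and 2.16 in 3D and 4.40, 2.98 and 3.28 in 2D. All scaffold libraries were lower, and RPS27L changed by -0.63 (SE 0.14, limma adjusted p = 0.00947). RPL36AL was at 314.9, 290.3 and 265.1 in 3D and 434.7, 384.0 and 402.8 in 2D, and changed by -0.49 (SE 0.11, limma adjusted p = 0.00815). FPKM levels of different members are not compared here, because the gene lengths behind the values ran from 676 bases for RPL36AL to 19969 for RPS20, and 61 of the 82 members overlap another annotated gene with no strand given for the counting.

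The other L paralogs fell outside the test or the rule. RPL10L, a testis gene, was listed at 0 in every library, while its parent RPL10 was at 48.3, 43.7 and 41.8 FPKM in 3D and 86.2, 89.3 and 63.8 in 2D and changed by -0.81 (limma adjusted p = 0.00359). RPL3L, a gene of skeletal and heart muscle, held 2, 0 and 3 reads in 3D and 0, 1 and 2 in 2D. RPS9, a standard component of every small subunit, was the last untested member, with 28, 25 and 35 reads in 3D and 40, 47 and 24 in 2D, or 0.217 to 0.443 FPKM over the 6 libraries. RPS9 overlaps 6 other annotated genes, and how reads that match several genes were counted is not given in the sources used here, so these few reads do not show that RPS9 itself was barely expressed. Outside the naming rule, RPL7L1, a factor of large subunit assembly, and RPL26L1, a paralog of RPL26, rose in 3D by 0.58 (limma adjusted p = 0.016) and 0.62 (limma adjusted p = 0.0126). RPL7L1 was no longer called with median-ratio or upper-quartile scaling of the libraries (limma adjusted p = 0.069 and 0.0545). RPL22L1 changed by 0.11 (limma adjusted p = 0.542).

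Members with and without the annotated start tract were set side by side, where 68 of all 79 tested members and 18.1% of all tested genes fell. Of the 45 tested members with a C and at least 4 pyrimidines at 1 or more annotated starts 41 fell and 4 did not pass, and the median log2 change was -0.84. Of the 18 tested members with no such start among those annotated 15 fell, 1 rose (RPS26) and 2 did not pass, with a median of -0.58. Some of these, RPL4, RPL19, RPL36AL and RPS28 among them, had a C followed by 7 pyrimidines within 10 bases of a start. The 2 classes therefore do not separate TOP mRNAs from others. RPL21 and RPL36A, whose sequences above carry runs of C and T, were among those that did not pass in their own rows, and RPS4X, which carries none, fell by 0.47 on the log2 scale (limma adjusted p = 0.0156; not called without 3D replicate 2 or 2D replicate 2). RPL29 and RPS27 both carry the tract and fell by 1.21 and 1.42. The difference between the classes was not tested.

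Other mRNAs of the TOP class were mixed. Of 22 tested genes 10 fell, 2 rose and 10 did not pass, where 18.1% of all tested genes fell and 33.3% rose. The median log2 change was -0.31, against 0.14 over all tested genes. The elongation factor genes EEF1A1, EEF1G and EEF2 fell by 0.54, 0.73 and 0.49 on the log2 scale (limma adjusted p = 0.00357, 0.00333 and 0.00383). EEF1B2 and EEF1D did not pass (limma adjusted p = 0.14 and 0.154). TPT1, which encodes the tumour protein TCTP, was at 29.1, 28.7 and 29.4 FPKM in 3D and 55.0, 56.7 and 49.8 in 2D, and GAS5, a TOP transcript that hosts small nucleolar RNAs, at 5.50, 5.10 and 5.05 in 3D and 12.9, 12 and 9.35 in 2D. Both were lower in every scaffold library, by -0.86 (limma adjusted p = 0.000536) and -0.99 (limma adjusted p = 0.000998). Initiation factor genes went both ways. EIF3A and EIF2S3 rose, by 0.76 (limma adjusted p = 0.00114) and 0.40 (limma adjusted p = 0.00797). EIF4B, EIF3H, EIF3E and EIF3L fell, with log2 changes of -1.02, -0.64, -0.36 and -0.35 (limma adjusted p = 0.00418, 0.00722, 0.0115 and 0.016). The call of EIF3L was lost without 3D replicate 3. With median-ratio scaling 17 of the 22 fell and 1 rose, since EIF2S3 was not called (limma adjusted p = 0.0642). In that fit 3148 of all 12843 tested genes (24.5%) fell and 3148 rose.

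**Figure D5:**
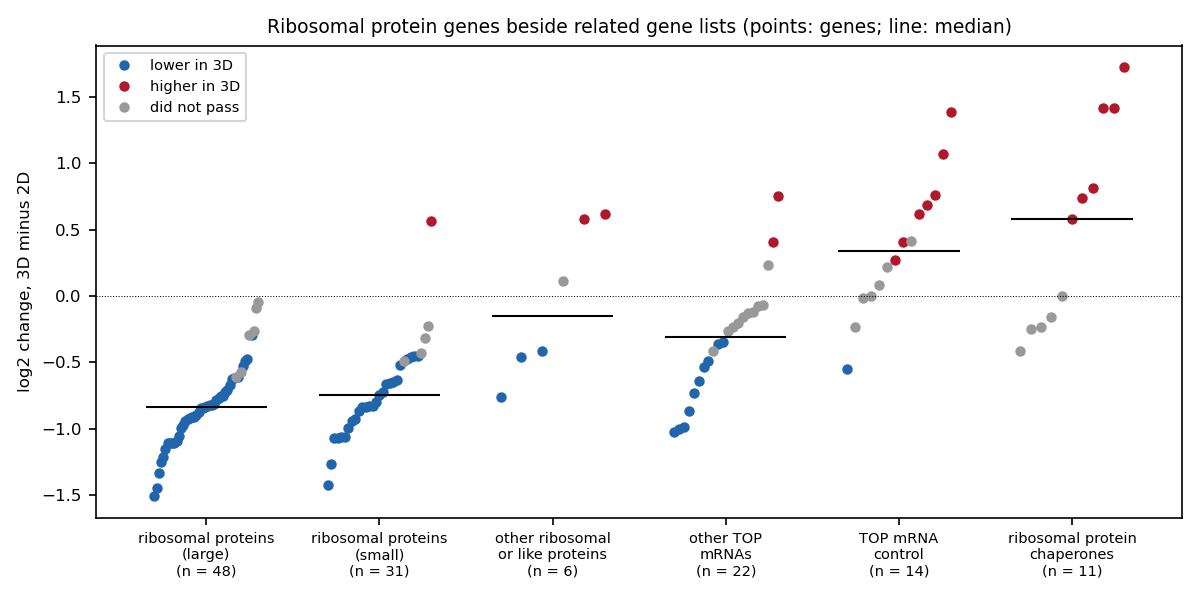
Log2 change of each tested gene (points, coloured by call) and the median (line) for the large and small subunit members, ribosomal or like proteins outside the naming rule, other TOP mRNAs, genes that control TOP mRNAs, and chaperones of ribosomal proteins. The 2 member lists lie lowest, with medians of -0.83 and -0.74, and the chaperones highest, at 0.58. NACA, BTF3 and NAP1L1 are drawn both among the other TOP mRNAs and among the chaperones.

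Genes that act on ribosomal proteins or their mRNAs were counted in the same fit, in which 33.3% of all tested genes rose and 18.1% fell. Of 11 listed chaperones and assembly partners 6 rose and 5 did not pass, and the median log2 change was 0.58, against 0.14 over all tested genes. NACA, BTF3 and NAP1L1, which did not pass, were counted both here and among the other TOP mRNAs. GRWD1, a chaperone of RPL3, was at 21.5, 17.7 and 16.7 FPKM in 3D and 6.49, 6.12 and 6.37 in 2D. LTV1, which helps to place RPS3 on the maturing small subunit, was at 48.4, 40.01 and 41.8 in 3D and 12.5, 11.4 and 13.4 in 2D. PNO1, which holds a place on the precursor that RPS26 later takes, was at 19.6, 12.3 and 12.7 in 3D and 4.98, 4.8 and 4.69 in 2D. All 3 were higher in every scaffold library, with log2 changes of 1.42, 1.72 and 1.41 (limma adjusted p = 0.000302, 0.000218 and 0.000899). With median-ratio scaling 6 of the 11 rose and 3 fell, where 3148 of all 12843 tested genes rose and 3148 (24.5%) fell.

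Of 14 genes in the control of TOP mRNAs 7 rose, 1 fell and 6 did not pass, with a median log2 change of 0.34. With median-ratio scaling 5 rose and 2 fell, LARP4B and RPS6KB2 being no longer called (limma adjusted p = 0.298 and 0.14). In that fit 3148 of all 12843 tested genes rose and 3148 (24.5%) fell. MTOR, the kinase of mTORC1, was at 11.2, 10.7 and 11.1 FPKM in 3D and 3.00, 4.10 and 3.69 in 2D, and changed by 1.39 (limma adjusted p = 0.000313). LARP4 and LARP1, proteins that bind mRNAs of this class or their tails, rose by 1.07 and 0.76 (limma adjusted p = 0.000467 and 0.00117). EIF4EBP1, a repressor of cap-dependent translation that mTORC1 inactivates, was the one that fell, by -0.55 (limma adjusted p = 0.0255), a call lost when replicate 2 or 3 of the scaffold or replicate 1 or 2 of flat culture was left out (limma adjusted p = 0.0828, 0.0787, 0.0797 and 0.0854). EIF4EBP2, in the same list, rose by 0.69 (limma adjusted p = 0.00378) and was higher in every scaffold library. These are mRNA levels, and the activity of mTORC1 was not measured. Of 12 genes in ribosomal protein turnover and quality control 2 rose, 2 fell and 8 did not pass, shares no higher than those over all tested genes, with a median log2 change of 0.18. UBE2O, a ligase that marks unassembled ribosomal proteins, fell by 0.63 on the log2 scale (limma adjusted p = 0.00373), and ASCC3, a helicase that splits collided ribosomes, and HUWE1, another ligase of unassembled ribosomal proteins, rose by 0.67 (limma adjusted p = 0.00468) and 0.70 (limma adjusted p = 0.0111).

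The size of the shift depended on how the libraries were scaled. As a share of summed FPKM the members took 2.74 ± 0.145% in 3D and 3.89 ± 0.315% in 2D (SD, n = 3 each). This ratio was 1.42 in favour of 2D, smaller than the 1.77 by share of reads. With median-ratio factors the median over all tested genes was 0.01 in place of 0.14 on the log2 scale. On that scale 73 members fell, against 24.5% of all tested genes, RPS26 rose (limma adjusted p = 0.0479) and the median of the members was -0.998.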

How the data were processed

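The 6 libraries (3 of 3D culture, 3 of 2D) were made from poly(A)-enriched RNA, per the labels' protocols. Values are FPKM computed by the authors for 62703 Ensembl IDs, per the file headers; FastQC, fastp, HISAT2, StringTie, edgeR and GRCh38 are named without roles in the submitters' processing notes. The counting of reads that match several genes, which decides how reads divide between members and pseudogenes, and the strand setting are not stated in the labels or headers.

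Genes that reached 1 FPKM in 3 or more libraries were tested on log2(FPKM + 1) with limma 3.58.1 (trend and robust, statmod 1.5.0, R 4.3.3), 2-sided, with Benjamini-Hochberg adjustment over all tested genes and a threshold of 0.05. Fold changes on this scale understate changes of low genes. An exact permutation test of 3 against 3 cannot go below 0.1. The fit was tested on simulated data. Symbols came from a gene name table that, with GENCODE 29, named 62697 IDs; gene classes and overlaps are from GENCODE 29, which held 58279.

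Reads were worked out as whole numbers (within 0.01 reads) from FPKM for 32862 of 33243 genes above 0. Chi-square tests of the reads gave 14.7 to 34.4 per degree of freedom between replicates, above sampling noise. Members and lists were chosen with earlier results of these data known. Genes named with values were the 4 members with the largest and smallest absolute change in each subunit and every member not called lower. So were the 4 largest relative changes in each direction, and L paralogs with their parents. The rest were up to 4 members of each functional list and up to 3 genes of each other list by adjusted p. Added after their values were seen were RPL29, RPS4X, EEF1A1, EEF1B2, EEF1D, EEF1G, EEF2, LARP4B and RPS6KB2. The same holds for EIF2S3, EIF3E, EIF3H, EIF3L, EIF4B, EIF4EBP1 and EIF4EBP2, and for RPL9P7, RPL36AP37, RPL21P75 and RPS26P6. The alternatives are given at the end. Some genes are counted in the totals but not reported here by name or drawn in the plots that name genes.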

Additional observations from a re-analysis of the deposited data

How the results depend on the processing

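Under pseudocount 0.1, other filters, other scalings, protein-coding genes only, voom on worked-out reads, pseudogene sums and each library left out, 61 to 74 members were called lower (68 as reported) and their median log2 change stayed negative. It was -0.998 with median-ratio scaling, and -0.94 to -0.71 with a library left out. The call of RPS26 was lost without a filter (0 members higher) and with a minimum of 5 FPKM (0, RPS26 not being tested). Members below the set numbered 7 without a filter and 4 with pseudogene sums, and those above it 21 with sums; with a library left out they numbered 7 to 16 and 7 to 17. Without 3D replicate 2, 61 members were called lower, and RPL14, RPL15, RPS3A, RPS4X, RPS7, RPS15 and RPSA were among those lost. RPL36A, which was not called, turned sign with 3D replicate 2 left out (0.03) and with 2D replicate 1 left out, its range over the left-out libraries being -0.13 to 0.079; the cause was not tested. Median-ratio scaling moved the calls over all genes from 4272 higher and 2328 lower to 3148 each. Libraries of the same number share no stated origin and correlated at 0.08, -0.02 and 0.18 in their deviations, so they were not treated as pairs; with the replicate number as a replicate block 70 members were lower, RPL15 being lost and RPL30, RPL6 and RPS20 gained.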
